A study of Mus musculus with 6 samples.

Results

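Padi6, Pkp1 and Nutm1 are 3 genes of different families whose probes were brighter in the striatum of mice without HuD than in that of their wild-type littermates. They were chosen by their gene symbols from the authors' table of transcripts listed as higher in HuD-KO, and they had been picked because they were higher there and are best known from germ cells and epithelia. The 3 genes have 1 listed probe each, out of 1088 transcripts with 1031 gene symbols in the authors' tables, of which 298 were listed as higher and 790 as lower. A further probe of these genes that was not listed would carry no name here, so whether other probes differ is not known. Because the genes were chosen on the HuD-KO against WT contrast, their differences in that contrast are given as a description, with no test.

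RNA of the adult striatum was measured on 6 1-colour arrays with probes for mouse messenger RNAs and long non-coding RNAs, 3 from HuD-KO mice, in which both copies of Elavl4 are disrupted, and 3 from WT littermates. Elavl4 encodes HuD, an RNA-binding protein of neurons that recognizes AU-rich stretches in its target messages. The HuD-KO mice came from a single line obtained from another laboratory, no treatment is given for either group, and the age is given only as adult. Sex is not given in the sources used here. Whether each array held the RNA of 1 animal or of pooled animals is not stated, so the spread between arrays may in part be technical.

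PADI6 belongs to the peptidylarginine deiminases, enzymes that turn arginine in proteins into citrulline, and is known as an abundant component of the fibrous lattices of the egg cytoplasm that the early embryo needs. PKP1, plakophilin 1, is an armadillo-repeat protein of the desmosome, the junction through which keratin filaments of neighbouring epithelial cells are tied together, and is best known from skin. NUTM1 is a nuclear protein of developing sperm that recruits a histone acetyltransferase. Fusions of its gene define NUT carcinoma.

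The probes are shown because each gene's value rests on a single oligonucleotide. Padi6 (transcript NM_153106, probe ASMM10P028139) lies on the minus strand of chromosome 4 from 140727355 to 140742643. Pkp1 (NM_019645, ASMM10P049796) lies on the minus strand of chromosome 1 from 135871395 to 135919024. Nutm1 (NM_172521, ASMM10P021275) lies on the minus strand of chromosome 2 from 112247948 to 112259291. The positions are those of the authors' tables, counted from 1, and the tables name no build. The ends given for Padi6 and Nutm1 are those of the RefSeq annotation of GRCm38.p6, while those of Pkp1 differ. The last 30 of the 60 bases of each probe follow, 5′ to 3′, with the letters AATAAA, the polyadenylation hexamer, in capitals where they occur.
Padi6: tagagccAATAAAgcatggtattctgaatg
Pkp1: tgtatttgctttgtcaaaatataggaaatc
Nutm1: ttatgtggagaAATAAAgattgtttttggt

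The probes of Padi6 and Nutm1 held the hexamer and that of Pkp1 did not. The hexamer occurred in 11.1% of the 298 probes listed as higher and in 6.08% of the 790 listed as lower. None of the 3 probes held the AU-rich pentamer ATTTA, which occurred in 7.72% of the probes listed as higher and in 5.19% of those listed as lower. GC made up 38.3% of the Padi6 probe, 38.3% of the Pkp1 probe and 36.7% of the Nutm1 probe, against a median of 43.3% over the probes listed as higher. No other transcript was listed by the authors as cross-hybridizing with any of the 3 probes, whereas 179 of the 1088 listed probes had such an entry. On the array the probes lie in spot row 45 and column 97 (Padi6), row 115 and column 68 (Pkp1), and row 52 and column 143 (Nutm1).

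Among the 3 genes, a promoter sequence was at hand for Padi6. The 250 bases before its start are shown from RefSeq (GRCm38.p6, minus strand), with E-boxes (CANNTG) and the GC box (GGGCGG, searched on both strands) in capitals.
Padi6, chr4:140742644-140742893: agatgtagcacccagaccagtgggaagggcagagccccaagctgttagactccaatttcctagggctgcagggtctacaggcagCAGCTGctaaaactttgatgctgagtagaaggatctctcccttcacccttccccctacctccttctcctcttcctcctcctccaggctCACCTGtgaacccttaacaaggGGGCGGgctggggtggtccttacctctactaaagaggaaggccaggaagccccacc
The stretch held 2 E-boxes and 1 GC box, which began 56 bases before the start. Of 32851 promoter stretches of the same length, 66.2% held an E-box and 32.7% a GC box, so both are common. GC made up 56.8% of the Padi6 stretch.

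The 75th percentile of the processed signal lay between 535 and 615 in HuD-KO and between 446 and 496 in WT, and 77.8% to 82.0% of probes were well above background. A level is given here as the log2 of the processed signal minus the log2 of that array's 75th percentile, so that a level of 0 is a signal equal to the 75th percentile. The dimmest probe that the scanner software marked as well above background had a signal of 14.7 to 18.8, depending on the array. Levels of different probes are not ranked against each other, since each probe has its own response, and where the levels of a marker list are summed, the sum follows its brightest probes. In RNA of a whole tissue, more cells that express a gene and more RNA per cell cannot be told apart.

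In HuD-KO the processed signal of Padi6 was 1267, 1185 and 1394, and in WT it was 37.6, 51.3 and 25.2. The 3 HuD-KO arrays lay close together, and every WT array lay far below them. On the scaled log2 axis the level was 1.24, 1.11 and 1.18 in HuD-KO and -3.72, -3.18 and -4.14 in WT. The log2 difference between the group means was 4.86, a 29-fold higher signal, and the lowest HuD-KO array lay 4.29 log2 units above the highest WT array. The probe was marked well above background on all 6 arrays, and its WT signals were 1.62 to 2.92 times that of the dimmest probe so marked. A dim signal above background was therefore recorded with the Padi6 probe in WT striatum as well. Whether it comes from Padi6 transcripts was not tested.

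Pkp1 gave a processed signal of 571, 569 and 610 in HuD-KO, against 50.1, 31 and 26.6 in WT. Again no WT array reached the range of the HuD-KO arrays. Its level was 0.09, 0.06 and -0.01 in HuD-KO and -3.31, -3.91 and -4.07 in WT. The log2 difference was 3.81, or 14-fold, and the gap between the lowest HuD-KO and the highest WT array was 3.30 log2 units. Pkp1 too was well above background on all 6 arrays, its WT signals being 1.70 to 3.40 times that of the dimmest probe so marked.

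Nutm1 was measured well above background in HuD-KO alone. In HuD-KO its processed signal was 89.6, 82.0 and 96.3, and in WT it was 10.4, 16.4 and 5.41. The probe was well above background on the 3 HuD-KO arrays and on 0 of the 3 WT arrays, so its WT level is only bounded from above. The measured levels were -2.58, -2.74 and -2.68 in HuD-KO and -5.57, -4.82 and -6.37 in WT. Against the signal of the dimmest probe well above background on each WT array, Nutm1 was at least 4.64-fold higher in HuD-KO. The HuD-KO signals were 4.36 to 5.54 times that of the dimmest probe well above background.

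**Figure D1:**
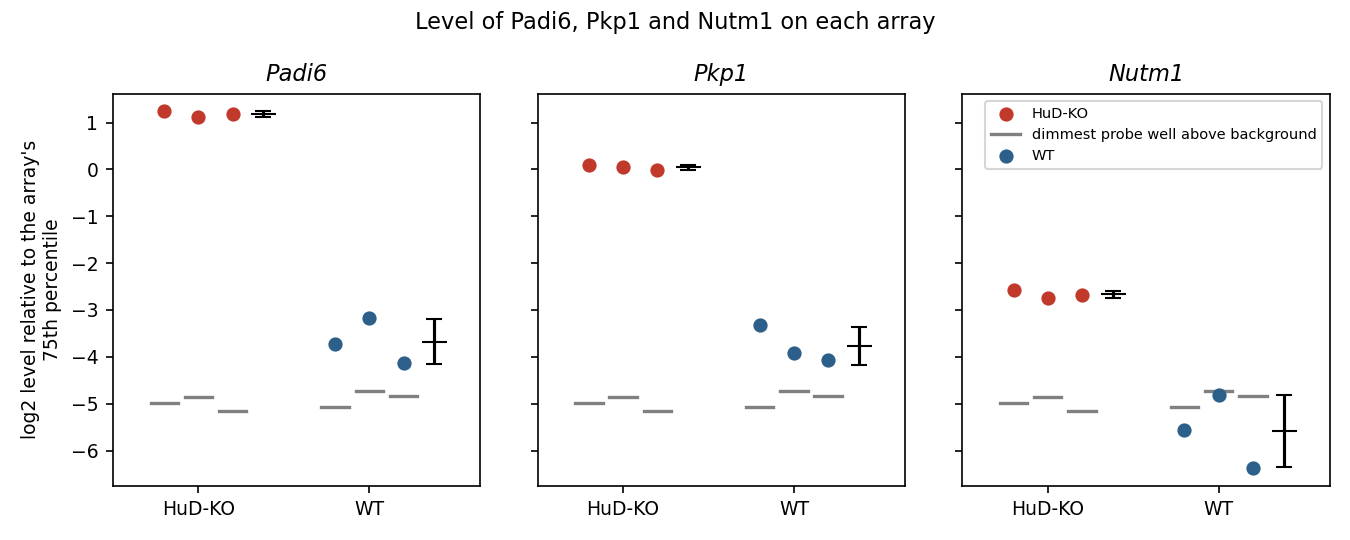
Level of Padi6, Pkp1 and Nutm1 on each of the 6 arrays (log2 of the processed signal relative to the array's 75th percentile); each point is 1 array, the black bars are the mean and SD of 3 arrays, and the grey dashes mark the dimmest probe well above background on the same array. HuD-KO and WT arrays do not overlap for any of the 3 genes, Padi6 and Pkp1 lie above the dashes on every WT array, and Nutm1 lies below them on all 3.

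The groups differed in their spread. The SD over 3 arrays was 0.06 in HuD-KO and 0.48 in WT for Padi6, 0.05 and 0.40 for Pkp1, and 0.08 and 0.77 for Nutm1. The median SD over all tested probes was 0.11 in HuD-KO and 0.16 in WT. The HuD-KO arrays thus lay closer together for the 3 genes than for the median probe. The WT arrays lay farther apart for Padi6 and Pkp1, the 2 genes measured well above background there. The scanner software's modelled error was 10.0% of the Padi6 and Pkp1 signals on each HuD-KO array and 11.6% to 15.9% on the WT arrays. For Nutm1 it was 10.6% to 11% in HuD-KO and 23.6%, 29.9% and 58.5% in WT. Its WT signals were not well above background, so the order of the WT arrays and their SD are not informative for this gene. Among the WT arrays, Padi6 was highest on WT-2 and Pkp1 on WT-1, and both were lowest on WT-3.

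Non-overlap of the groups was common on these arrays. All 3 HuD-KO arrays lay above all 3 WT arrays for 13079 of 47857 tested probes, or 27.3%, and below them for 22.5%. With limma at an adjusted p under 0.05, 16.0% of the tested probes were higher and 14.4% lower in HuD-KO, 7651 and 6888 probes. The counts were 3439 and 3856 without HuD-KO-1, 4376 and 4578 without HuD-KO-2, 3923 and 4070 without HuD-KO-3, and 3459 and 3607 without WT-1. They were 139 and 144 with a block for the row of the slide, which leaves WT-1 alone to be set against HuD-KO. With normexp, which was run on the median spot signal in place of the processed signal and with an offset of 50, the split turned to 6502 higher and 8820 lower. Nothing is read from these shares for the 3 genes, which were chosen on the same contrast. Among the 44487 probes well above background on all 6 arrays, with or without a gene name, the upward difference of Padi6 ranked 2. That of Pkp1 ranked 5. The probe above Padi6 was that of Uty, a gene of chromosome Y, with a log2 difference of 5.49. Probes not well above background on every WT array, such as that of Kdm5d at 5.59, have no place in this ranking. Because the genes were picked for being higher in HuD-KO, high ranks follow in part from that choice, and nothing is read from them. Nutm1 has no rank, having only a bound. The spots around the members on the array did not share their difference. The median log2 difference of 34 tested spots within 4 rows and 2 columns of Padi6 was 0.19, with none above 1.40. For 37 spots around Pkp1 it was 0.24 with none above 1.48, and for 36 spots around Nutm1 it was 0.08 with none above 1.15.

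**Figure D2:**
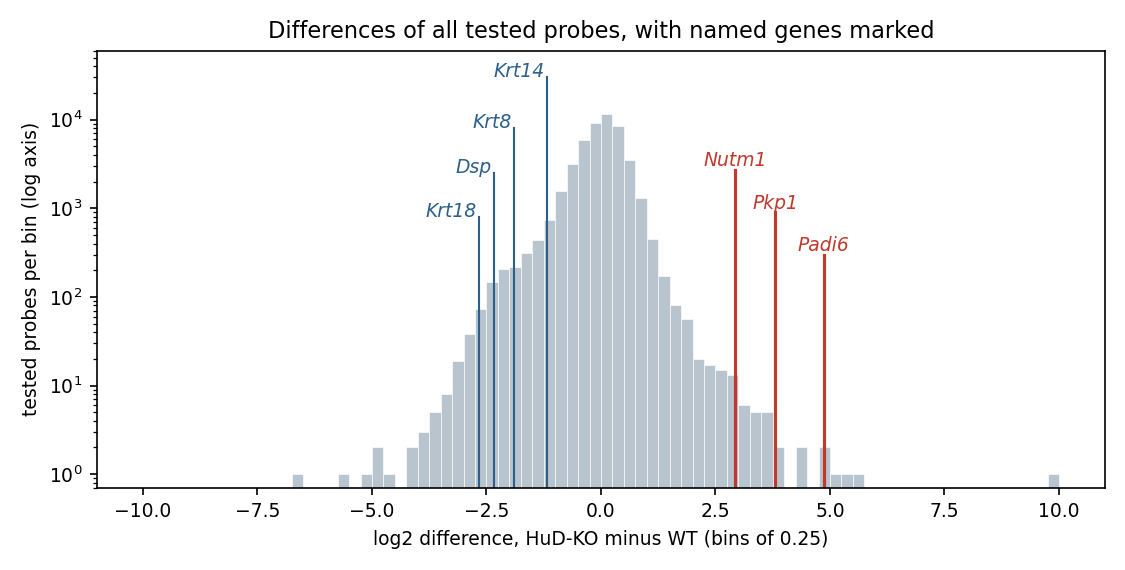
Number of tested probes (log axis) per bin of 0.25 of the log2 difference, HuD-KO minus WT, over 47857 probes; vertical lines mark Padi6, Pkp1 and Nutm1 in red and the 4 named genes of the desmosome and epithelium list in blue. The 3 genes lie in the upper tail at 4.86, 3.81 and 2.92, the last being the measured difference of a gene not well above background in WT, and the desmosome and keratin genes lie below 0.

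Companion genes of the same structures were looked up from lists of known members. A probe has a gene name only if the authors listed it as changed over 2-fold, so a list gene without a name may have no probe, or a probe that did not pass the thresholds of the authors. Every list or marker gene named below was thus listed for a change on these same arrays. Its direction and its adjusted p are descriptions and not independent evidence, since passing follows in part from the listing. Of 24 genes of the egg and early embryo, among them the other peptidylarginine deiminases Padi1, Padi2, Padi3 and Padi4 and the lattice and zona genes Nlrp5, Tle6, Ooep, Zp2 and Zp3, 0 had a named probe. The germ cell markers Ddx4 and Dazl had none either. No other gene of this list thus stood beside Padi6 among the listed transcripts. The 1088 listed transcripts stand against 60915 probes on the arrays, which include those for long non-coding RNAs. Many genes of a list may therefore have no name, and the named share differed between lists. Nothing is therefore read from the number of named genes in this list or in those that follow.

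Of 32 genes of desmosomes and epithelia, 4 had a named probe, and all 4 were lower in HuD-KO, the opposite direction to Pkp1. Dsp encodes desmoplakin, which links the desmosomal plaque to keratin filaments. Its level was 1.23, 1.51 and 1.15 in HuD-KO and 3.76, 4.16 and 2.98 in WT, a log2 difference of -2.34 ± 0.30 (SE, limma adjusted p = 0.00471). Krt8 and Krt18, the keratin pair of simple epithelia, fell by 1.89 ± 0.43 and 2.67 ± 0.42 log2 units (limma adjusted p = 0.0215 and 0.00773). For Krt18 the levels were -2.52, -1.15 and -2.51 in HuD-KO and 0.71, 0.16 and 0.95 in WT, so that HuD-KO-2 lay nearest to WT. HuD-KO-2 also stood apart from the other HuD-KO arrays for Krt8, at 1.79 against 0.38 and 0.60. Krt14, a keratin of basal epidermal cells, fell by 1.18 ± 0.21 log2 units (limma adjusted p = 0.0116). The groups overlapped for none of the 4, as for 22.5% of all tested probes in this direction, and their median log2 difference was -2.11, against 0.04 over all tested probes. Since a name is given only to transcripts listed as changed on these arrays, and 790 of the 1088 were listed as lower, nothing is read from that distance. The other plakophilins, Pkp2, Pkp3 and Pkp4, had no named probe, nor had the desmosomal cadherins.

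The 4 calls did not all stand under other settings. Krt8 no longer passed when HuD-KO-1, HuD-KO-3, WT-1 or WT-3 was left out, with limma adjusted p = 0.0695, 0.0749, 0.0707 and 0.0544. The 6 arrays lay on 1 slide, with all HuD-KO arrays and WT-1 in row 1 and WT-2 and WT-3 in row 2. When the slide row entered the model as a block, the limma adjusted p was 0.0674 for Dsp, 0.144 for Krt8, 0.122 for Krt14 and 0.0837 for Krt18. The log2 differences under this block were -2.46, -1.98, -1.11 and -2.77, close to those without it, and the comparison then rests on WT-1 as the only WT array in the row of the HuD-KO arrays. Krt8 did not pass by the methods' t-test either (adjusted p = 0.0725).

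Of 30 genes that pair with NUT in carcinoma fusions or act in spermatogenesis, 1 had a named probe, Tnp2, a transition protein that replaces histones in maturing sperm. Its level was -5.14, -4.56 and -5.40 in HuD-KO and -3.61, -3.62 and -3.53 in WT, which is lower in HuD-KO, unlike Nutm1. Only 1 HuD-KO array, but every WT array, measured it well above background, and the difference was at least 2.48-fold. The limma adjusted p was 0.00662, and 0.0848 with a term for the slide row described above. The NUT partners Brd2, Brd3, Ep300 and Nsd3 had no named probe.

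The named markers of other cell types moved with the groups. A marker has a name only if it was listed as changed on these arrays, so nothing is read from how many passed. Of all tested probes, 16.0% were called higher and 14.4% lower. Of 9 choroid plexus markers 2 were named, Clic6 and Kcnj13, with log2 differences of -1.46 and -2.95 (limma adjusted p = 0.0053 and 0.00893). For Kcnj13, HuD-KO-2 lay at 1.49 and the other HuD-KO arrays at -0.22 and -0.28. The summed level of the pair, in multiples of the 75th percentile, was 1.04 to 3.13 in HuD-KO and 8.94 to 12.3 in WT. Of 5 ependymal markers 4 were named, and 3 of them passed the test downward, Ccdc153, Rarres2 and Dynlrb2. The fourth, Tmem212, had a log2 difference of -1.66 (limma adjusted p = 0.0504). Ccdc153 did not pass without HuD-KO-1, HuD-KO-3 or WT-1 (limma adjusted p = 0.053 to 0.0549), nor did Rarres2 and Dynlrb2 without HuD-KO-1, HuD-KO-2, HuD-KO-3 or WT-1 (limma adjusted p = 0.0511 to 0.0928), and Tmem212 passed without WT-2 (limma adjusted p = 0.00961). Tmem212 also passed under quantile normalization with or without a floor, normexp, a filter on all 6 arrays and an intensity trend with robust eBayes (limma adjusted p = 0.0317 to 0.0474). The summed level of the 4 was 9.18 to 13.7 in HuD-KO and 16.9 to 56.9 in WT. Choroid plexus and ependyma are epithelia of the ventricle wall, and the 5 named markers of them that passed the test were lower, like the desmosome and keratin genes and unlike Pkp1. The other 7 choroid plexus markers and the other ependymal marker have no named probe. Their part in the keratin and desmoplakin values was not tested.

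Lum, the 1 of 6 markers of meninges and fibroblasts with a name, was lower in HuD-KO with a log2 difference of -1.29 (limma adjusted p = 0.00621). Of 5 markers of neighbouring brain regions, 3 were named and all rose in HuD-KO. Oxt, the hypothalamic hormone gene oxytocin, rose by 2.94 log2 units (limma adjusted p = 0.0167), with HuD-KO-2 at 3.84 and the other HuD-KO arrays at 2.37 and 2.06, and Neurod6, a cortical transcription factor gene, by 1.69 (limma adjusted p = 0.00877). Tcf7l2 rose by 1.01 (limma adjusted p = 0.0244). Oxt did not pass without WT-1 (limma adjusted p = 0.0502), nor Tcf7l2 without HuD-KO-2 or HuD-KO-3 (limma adjusted p = 0.0733 and 0.0824). By the methods' t-test, adjusted in the same way, Ccdc153 (0.0542), Rarres2 (0.0864), Dynlrb2 (0.0814), Oxt (0.062) and Tcf7l2 (0.0743) did not pass. No marker named in these paragraphs on cell types passed once the slide row was a block, a comparison that rests on WT-1 alone. The log2 differences were then still -2.93 for Kcnj13, -1.40 for Clic6, -2.18 for Ccdc153, -1.17 for Lum, 1.64 for Neurod6 and 0.72 for Tcf7l2. The summed level was 65.1 to 72.4 for the 3 in HuD-KO and 13.5 to 28 in WT, most of it from Neurod6, and their part in the levels of the 3 genes was not tested. Of 10 markers of striatal projection neurons and 4 of blood, 0 had a named probe, so the tissue itself could not be checked by name. Krt14 was the only named one of 4 keratinocyte markers.

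The genotype labels were checked with Elavl4. Its level was -5.57, -6.07 and -6.13 in HuD-KO, where it was well above background on no array, and -1.09, -1.36 and -0.70 in WT, a signal at least 15.5-fold lower in HuD-KO. Whether the probe lies in the disrupted part of the gene is not given in the sources used here. Padi6 is on the same chromosome as Elavl4, 30.4 Mb away by the positions in the authors' tables. Pkp1 and Nutm1 are on other chromosomes.

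The listed transcripts most like the 3 genes in their pattern over the 6 arrays were found by the distance between levels, each probe set relative to its own WT mean, among 1049 other named probes. Nearest to Padi6 were Uty (distance 1.20), Ddx3y (1.33) and Kdm5d (1.57), all on chromosome Y. Nearest to Pkp1 was Eif2s3y (0.62), also on chromosome Y, followed by Mup10 (1.84) and Nutm1 itself (1.90). Nearest to Nutm1 were Mup10 (0.82), Myh3 (1.11) and Mup19 (1.20). Mup10 and Mup19 belong to the major urinary proteins, a family of close copies on chromosome 4, so that their 2 probes may not be specific, and Myh3 encodes the myosin heavy chain of embryonic muscle. This likeness is a description over 6 arrays, and for Nutm1, Ddx3y, Kdm5d, Mup10 and Mup19 it includes WT signals not well above background.

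All 4 genes of chromosome Y on the marker list were higher on every HuD-KO array than on any WT array. Uty had a level of 2.48, 2.54 and 2.58 in HuD-KO and of -3.09, -2.73 and -3.05 in WT (limma adjusted p = 0.000106). Kdm5d, a histone demethylase gene, had a level of -1.45, -1.60 and -1.43 in HuD-KO and of -7.40, -7.05 and -6.80 in WT. It was well above background on no WT array, as was Ddx3y, a helicase gene. The signal was at least 10.4-fold higher in HuD-KO for Kdm5d and at least 9.74-fold for Ddx3y. Eif2s3y, a translation initiation factor gene, rose by 3.62 log2 units (limma adjusted p = 0.000238). The probes of Uty and Eif2s3y were well above background on all 3 WT arrays. The summed level of the 4 genes was 7.28 to 7.86 in HuD-KO and 0.226 to 0.258 in WT. X inactivation could not be examined, its marker having no named probe. The Y-linked signal therefore separated the same 3 arrays from the same 3 arrays as the genotype did. For Padi6, Pkp1 and Nutm1, a difference that goes with the genotype and one that goes with the Y-linked signal cannot be told apart. The same holds for a difference in sex between the groups, since only males carry chromosome Y and sex is not given. This limit applies to the other genes compared here too.

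**Figure D3:**
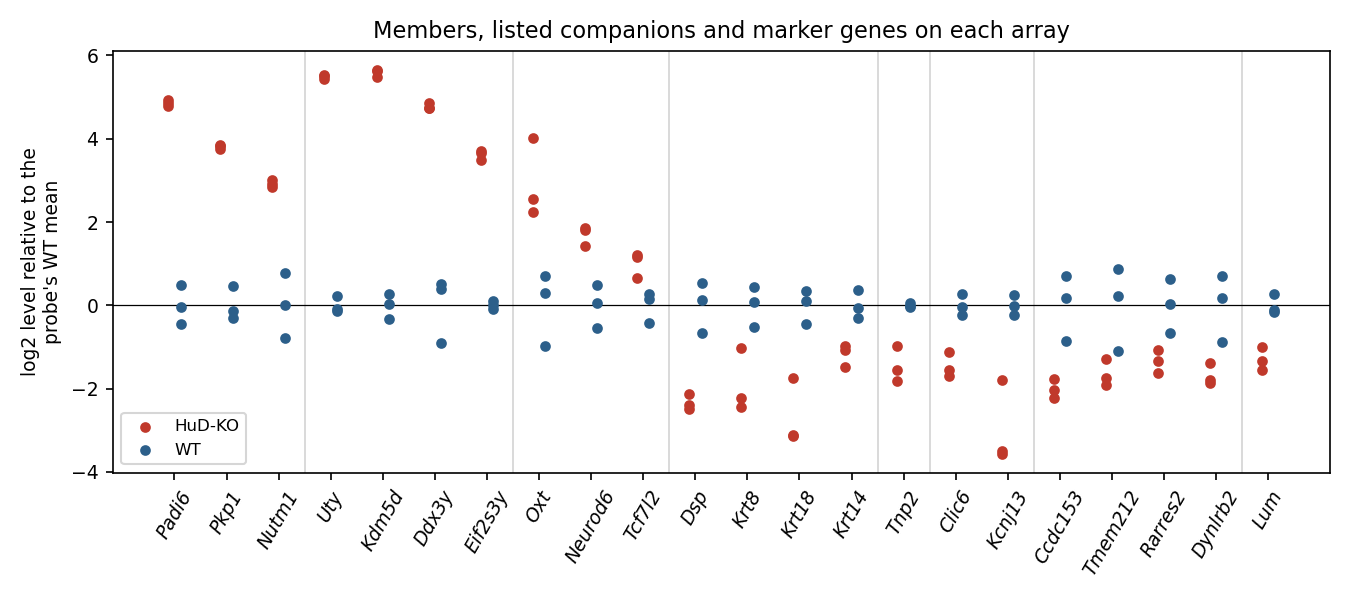
Level of each named gene on the 6 arrays, relative to the mean of its 3 WT arrays (log2); red points are HuD-KO and blue points WT arrays, and grey lines separate the 3 chosen genes, chromosome Y genes, markers of neighbouring brain regions, desmosome and keratin genes, Tnp2, choroid plexus markers, ependymal markers and Lum. The 3 chosen genes and the Y genes lie above the WT mean with tightly placed HuD-KO points, while desmosome, keratin, choroid plexus and ependymal genes lie below it.

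Genes beside the 3 on the chromosome were mostly not listed. Of the 5 protein-coding genes on each side in RefSeq, 1 of 10 was listed for Padi6, 0 of 10 for Pkp1 and 0 of 10 for Nutm1. Listing was rare over the whole array, with 1088 listed transcripts against 60915 probes, which include those for long non-coding RNAs. Nothing is read from these counts. Padi6 sits at one end of the cluster that holds Padi4, Padi3, Padi1 and Padi2, none of which was listed. The listed neighbour of Padi6 was Arhgef10l, a gene for a guanine nucleotide exchange factor, which ends 78.6 kb from it. Arhgef10l had a level of -5.82, -5.99 and -5.91 in HuD-KO and of -4.22, -4.26 and -5.33 in WT. It was listed as lower, the opposite direction to Padi6, but was well above background on 0 HuD-KO and 2 WT arrays and was therefore not tested here.

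The name germline and epithelial genes rests on what Padi6, Pkp1 and Nutm1 are known for, and the arrays gave it no other named member. Few genes of any kind were named, so that absence is only a description. None of the egg and germ cell genes looked up was listed as higher with Padi6 and Nutm1, and Dsp, the 3 keratin genes and Tnp2 moved the other way. A named gene was listed for a change on these same arrays, and 790 of the 1088 listed transcripts were lower. Nothing is therefore read from these directions. The probes of Padi6 and Pkp1 gave a dim signal above background in WT, and so did those of the Y-linked genes Uty and Eif2s3y. Whether such dim signals come from the named transcripts was not tested. The 3 are best called by their gene names.

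The differences of the 3 genes were computed again under other settings. Padi6 kept a log2 difference between 4.63 and 5.11 when any 1 array was left out, Pkp1 between 3.65 and 4.03, and the log2 bound of Nutm1 stayed between 2.12 and 2.29. Within slide row 1, where the 3 HuD-KO arrays can be set against WT-1, the log2 difference was 4.90 for Padi6 and 3.35 for Pkp1, and the bound for Nutm1 was 2.41. The authors' own log2 normalized values gave 4.95 for Padi6 and 3.87 for Pkp1. The setting that moved the values most was normexp, which started from the median spot signal and its local background in place of the processed signal and added an offset of 50, so that several choices changed together. The difference then was 3.52 for Padi6 and 2.47 for Pkp1, and the bound for Nutm1 was 0.82, all in the same direction.

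**Figure D4:**
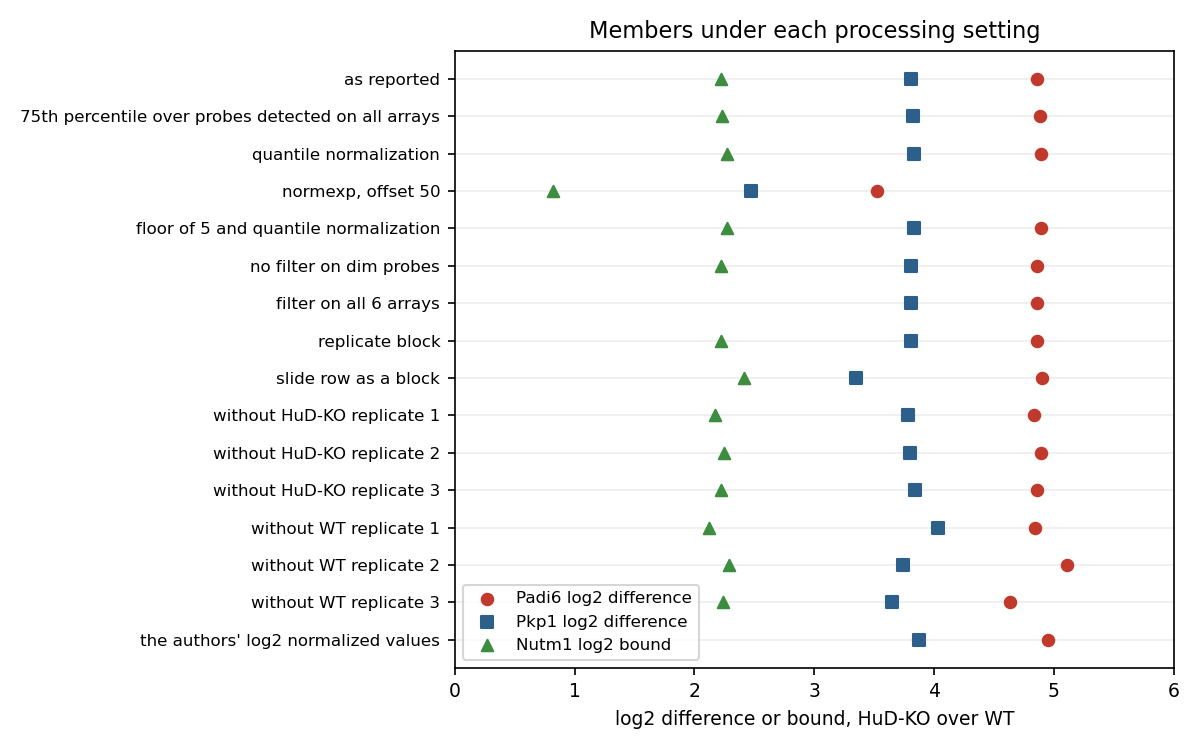
The log2 difference of Padi6 and Pkp1 and the log2 bound of Nutm1, HuD-KO over WT, under each processing setting (rows), with each point 1 setting. All points lie above 0, and those of normexp are the lowest for each gene, at 3.52, 2.47 and 0.82.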

How the data were processed

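RNA of 3 HuD-KO and 3 WT adult striata had been depleted of ribosomal RNA, amplified with oligo(dT) and random primers and hybridized to 1-colour arrays. The authors deposited scanner files with the intensity of each spot, which the scanner software had corrected for background per the file headers, and 2 tables of listed transcripts with an intensity and a log2 normalized value per array. How the log2 values were normalized is not given in the sources used here. The deposited tables also hold the authors' fold changes, p-values and FDR, which were not used. The submitters' processing notes name limma.

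The log2 processed signal minus each array's 75th percentile was used, with spots of 1 probe averaged. A probe was tested when well above background on all 3 arrays of at least 1 group (47857 probes). limma 3.58.1 in R 4.3.3 was run two-sided with Benjamini-Hochberg adjustment. Python 3.11.15, pandas 2.3.3 and numpy 2.4.6 made the tables. Precision is limited by the 3 arrays per group. A group not well above background on any array, or on only some, has a bound: the brighter group's mean against, per array, the probe's own signal or that of the dimmest probe well above background, whichever was higher.

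The 3 genes, the gene lists and the tests were chosen with earlier results of these data known. Genes named are the 3 members, Elavl4, every list or marker gene with a named probe, the 3 nearest in pattern and listed genes within 500 kb. Some list genes are not reported here. Alternatives were other scalings, background correction, filters, blocks, tests and leaving out each array.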

Additional observations from a re-analysis of the deposited data

How the results depend on the processing

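The differences of Padi6 and Pkp1 and the bound of Nutm1 kept their direction under every setting run. They moved by more than the SD between arrays with normexp on the median spot signal (3.52, 2.47 and 0.82) and, for Pkp1, under a block for slide row (3.35). Leaving out 1 array gave 4.63 to 5.11 for Padi6, 3.65 to 4.03 for Pkp1 and 2.12 to 2.29 for Nutm1. Over all probes, 3439 to 7039 were called higher and 3607 to 6579 lower with 1 array left out. A block for slide row left 139 and 144. Arrays of the same replicate number showed no shared deviation: after subtracting the group means, they correlated at -0.03, -0.06 and -0.13. Whether the numbers mark a pairing is not given in the sources used here. With the replicate number as a block, the differences were still 4.86 and 3.81 and the bound 2.22, while 2995 probes were called higher and 3533 lower. Of the list genes that had passed, Krt8, Krt14, Ccdc153, Rarres2, Dynlrb2, Oxt and Tcf7l2 no longer did under that block. Under the slide-row block, among the genes that had passed, those that still did were Elavl4 and the 4 genes of chromosome Y. The cause of these changes was not tested. Nutm1 has no value with a filter on all 6 arrays, which removes it, nor with the authors' log2 values, which carry no mark of background.

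Signal over background limits Nutm1, whose WT arrays give only an upper limit, and leaves Arhgef10l untested. Each of the 3 genes rests on 1 probe, and sequences of their proteins and of the promoters of Pkp1 and Nutm1 were not analysed here.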
